A study of Vitis vinifera with 27 samples.

Results

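A set of 20 genes of the latent bud of grapevine (Vitis vinifera) had far fewer reads at BBCH63 and BBCH77 than at BBCH90. They were taken from 35134 genes by their reads in buds of cv. Merlot. Expression was measured as CPM, the reads of a gene per 1000000 reads counted in the library. A gene entered the set when its mean over the BBCH90 libraries was at least 10 CPM and at least 16 times its BBCH77 mean, and when the ratio of its BBCH77 to its BBCH63 mean lay between 0.5 and 2. The genes were thus chosen by their stage means, and the differences between stages are given as a description, with no test.

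Buds came from nodes 2, 5 and 10 of the shoot at BBCH63 (anthesis, in June), BBCH77 (cluster closure, in July) and BBCH90 (harvest, in October), with 3 biological replicates in each of the 9 groups. The vines were grafted on the Kober 5BB rootstock in 1 vineyard and received no experimental treatment. Each replicate was a pool of buds from the same node, so a library does not represent a single plant. Stage is the same as sampling date here, and the season, the development of the bud and any other factor that changed with date cannot be told apart. In such bulk samples more cells of a type and more RNA per cell cannot be told apart either. The 27 libraries held 34531620 to 53307172 counts.

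A latent bud of grapevine forms the shoot of the next year in the leaf axil. Inflorescences of the coming crop begin inside it as primordia, and in grapevine a primordium may also give rise to a tendril. The bud becomes dormant at the end of the season and does not burst until after winter. The authors place BBCH90 just before dormancy begins. No gene of the set has a name or a role in the count table, in the sources on the study or in the reference gene table, and the 20 genes are given here by identifier alone.

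Genes that mark the tissue were present in the libraries. VvVFL, the grapevine homologue of LEAFY that acts in meristems and primordia, had a mean of 5.78 CPM at BBCH63, 9.02 CPM at BBCH77 and 3.34 CPM at BBCH90. VvTFL1A, which keeps the meristem indeterminate, had 7.60, 4.15 and 0.128 CPM at the same stages. VvUBC28, the reference gene for the qPCR of the study, had means of 151.5, 124.1 and 220.4 CPM. Its lowest BBCH90 library, at 167.2 CPM, lay above its highest BBCH77 library, at 134.5 CPM.

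Replicate 3 of node 10 was left out at every stage, as the rule of selection requires, and 2 of these 3 libraries had counts that went against their labels. The library labelled BBCH90 node 10 replicate 3 had the same count as BBCH63 node 2 replicate 2 at all 35134 genes. The library labelled BBCH77 node 10 replicate 3 lay within the range of the 8 BBCH90 libraries at 85.6% of the 22999 genes that passed the low-count filter. In the library labelled BBCH63 node 10 replicate 3 the 20 genes summed to 1469 CPM, within the 410.7 to 2048 CPM of the other BBCH63 libraries. With all 27 libraries in the stage means, the rule found 0 genes. Each node 10 group below thus had 2 libraries.

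The genes were not silent before BBCH90. Each of the 20 had reads in all 24 libraries, and the lowest count of any of them was 3. The name of genes switched on only at BBCH90 thus overstates the data, which show lower levels followed by much higher ones. At BBCH90 the 20 genes together took 3.90% ± 0.586 (SD, n = 8) of all counts in a library. At BBCH77 they took 0.0811% ± 0.0141 (SD, n = 8). The share at BBCH63 was 0.111% ± 0.0599 (SD, n = 8). The lowest BBCH90 library stood at 3.0% and the highest earlier library at 0.205%.

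Of the reads of the set at BBCH90, most came from 3 genes, which held 3.43% of all counts on average. Vitvi04g01368 had 11523, 13340 and 17435 CPM in the BBCH90 libraries of node 2. At node 5 it had 13190, 16535 and 15945 CPM, and at node 10 it had 13332 and 13540 CPM. It had the highest mean CPM of all genes at BBCH90 and ranked 502 at BBCH77. Before BBCH90 it lay between 65.7 and 491.2 CPM, and its BBCH90 mean was 52.1 times the BBCH77 mean.

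Vitvi19g00581 ranked 2 by mean CPM at BBCH90. Its values in those libraries were 8926, 9641 and 16116 CPM at node 2, 10066, 11336 and 12457 CPM at node 5, and 10292 and 11245 CPM at node 10. Node 2 held both the lowest and the highest of these values, so the nodes overlapped. This gene had the highest early level in reads of the set, with a mean of 690.3 CPM at BBCH63 and 413.6 CPM at BBCH77. Its BBCH90 mean was 27.2 times the BBCH77 mean and 16.3 times the BBCH63 mean.

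Vitvi05g01933 had the widest gap between stages. It had 6344, 7566 and 8896 CPM at node 2 at BBCH90, 8423, 9010 and 11366 CPM at node 5, and 9216 and 8461 CPM at node 10. The highest of the 16 earlier libraries had 39.3 CPM. The BBCH90 mean was 363.1 times the BBCH77 mean, and the lowest BBCH90 library was 161.3 times the highest earlier one. By mean CPM the gene moved from rank 9071 at BBCH77 to rank 4 at BBCH90.

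**Figure D1:**
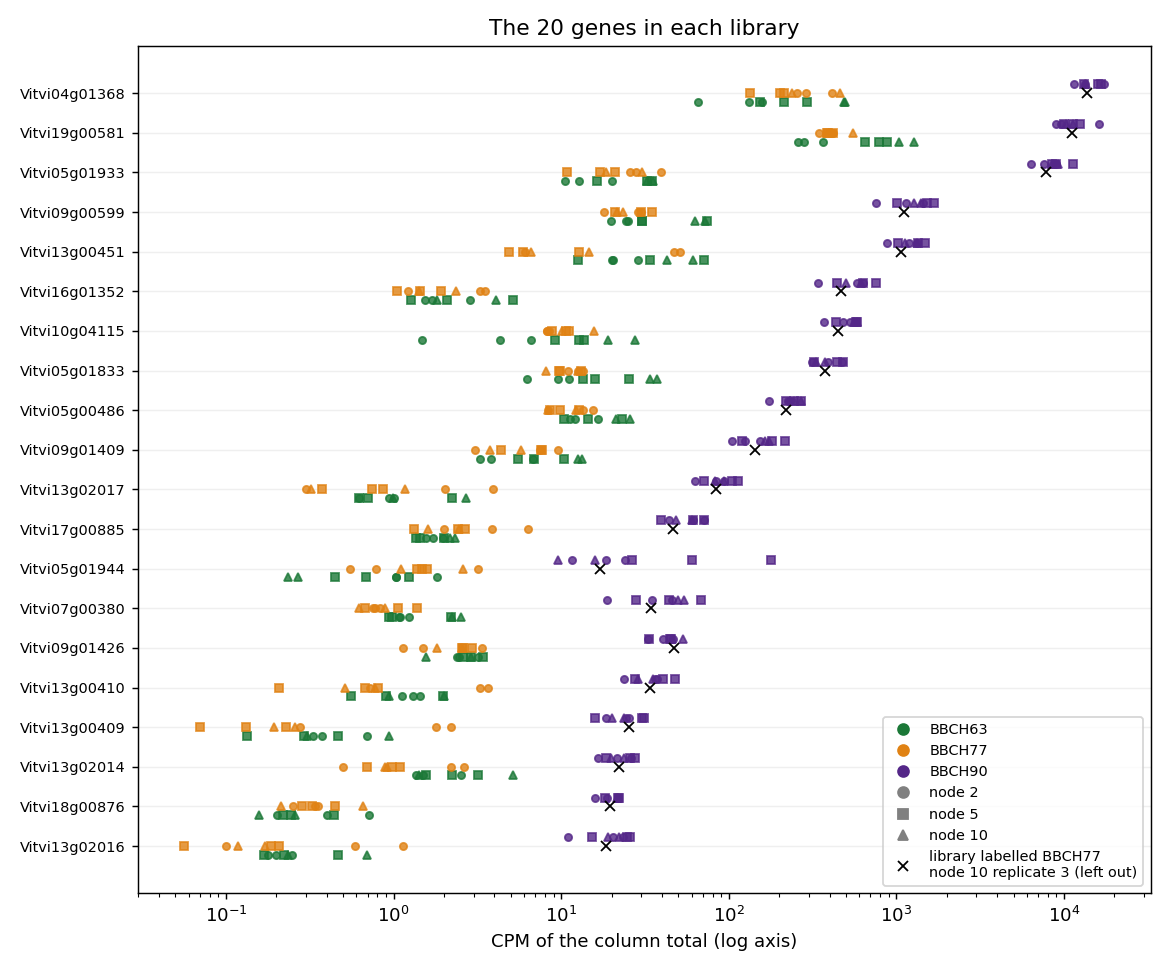
CPM of each of the 20 genes (rows, ordered by BBCH90 mean) on a log axis, with 1 point for each of the 24 libraries compared. Colour gives the stage and shape the node, and the cross is the library labelled BBCH77 node 10 replicate 3, which was left out. The BBCH90 points of every gene lie to the right of its earlier points, and the crosses fall among the BBCH90 points.

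The other 17 genes had BBCH90 means from 20.2 to 1280 CPM. Vitvi09g00599 and Vitvi13g00451 followed with means of 1280 and 1210 CPM, against 26.0 and 18.7 CPM at BBCH77. Vitvi16g01352, at 2.03 CPM at BBCH77 and 562.7 CPM at BBCH90, had the second widest ratio of the set, 277.4. Vitvi10g04115, Vitvi05g01833, Vitvi05g00486 and Vitvi09g01409 had BBCH90 means of 513.4, 391.2, 235.1 and 155.0 CPM.

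The 10 genes with the fewest reads at BBCH90 followed. Vitvi13g02017 had 88.1 CPM, Vitvi17g00885 had 57.1 CPM, and Vitvi05g01944, Vitvi07g00380 and Vitvi09g01426 had 43.2, 42.9 and 42.8 CPM. Vitvi13g00410, Vitvi13g00409, Vitvi13g02014, Vitvi18g00876 and Vitvi13g02016 ended the list with 34.7, 23.7, 22.5, 20.3 and 20.2 CPM. Gene lengths were not at hand, so these values order genes by reads and not by transcript number.

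Over the set, the ratio of BBCH90 to BBCH77 ran from 18.1 in Vitvi13g02014 to 363.1 in Vitvi05g01933, with a median of 42.9. In all 20 genes every BBCH90 library lay above every earlier library, which 11.7% of the 22999 genes did. This count was fixed in large part by the rule, and nothing is read from it. The narrowest gap was that of Vitvi05g01944, with its lowest BBCH90 library 3.01 times its highest earlier one. Within single nodes the ratio was at least 16 in 15 genes at node 2, 19 at node 5 and 19 at node 10, and 14 genes reached it at all 3 nodes. CPM of the column total put the median log2 ratio of BBCH90 to BBCH77 at -0.15 over 19197 genes, and TMM scaling, which adjusts library sizes so that most genes keep their level, put it at 0.02. After TMM scaling the lowest ratio in the set was 19.5.

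Genes lay close to the fold and ratio limits on both sides. Vitvi01g00408 missed the fold limit with a ratio of 15.9, close to the 18.1 of Vitvi13g02014 and the 18.6 of Vitvi09g01426 inside it. The level limit fell in a gap, with Vitvi02g01788 outside at 8.88 CPM and the lowest gene inside, Vitvi13g02016, at 20.2 CPM. Of 41 genes past the level and fold limits, 14 were left out because BBCH77 was at or below 0.5 times BBCH63, and 6 because it was at or above 2 times. Among the former was Vitvi06g00561, with 3164 CPM at BBCH90, 310.7 times its BBCH77 mean, and a BBCH77 to BBCH63 ratio of 0.454. Just inside this limit were Vitvi13g00451 at 0.514 and Vitvi13g02014 at 0.523. At the upper limit Vitvi05g01944 lay inside at 1.87 and Vitvi10g01577 outside at 2.60. For Vitvi05g02156 the ratio could not be formed, since it had no count at BBCH63 or BBCH77, and its BBCH90 mean was 24.9 CPM.

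The identifiers carry a chromosome number, and by it the 20 genes lay on 10 chromosomes, with 6 on chromosome 13, 4 on chromosome 5 and 3 on chromosome 9. Whether the order of the identifier numbers is the order of the genes was not tested, since coordinates were not used here. By number, 7 of the genes lay within 12 of another gene of the set. These were Vitvi13g02014, Vitvi13g02016 and Vitvi13g02017, then Vitvi13g00409 and Vitvi13g00410, and Vitvi05g01933 and Vitvi05g01944. Vitvi13g00410 had 1.28 to 1.74 times the reads of Vitvi13g00409 in the BBCH90 libraries. This ratio ranged from 1.57 to 9.67 at BBCH77, where the counts were low. Whether genes of such close numbers share reads was not tested, since their sequences were not used here.

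Genes outside the set with nearby numbers were examined too. Of 182 such genes with at least 1 CPM at BBCH77 or BBCH90, 11 (6.04%) had a BBCH90 mean at least 4 times the BBCH77 mean, against 1.62% of all 19761 genes at that level. Vitvi05g01943, next in number to Vitvi05g01944, had 6.49 CPM at BBCH77 and 206.0 CPM at BBCH90. It missed the set by its BBCH77 to BBCH63 ratio. The authors annotate it as early nodulin-75-like, a name for proline-rich proteins first described in legume nodules.

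Differences between nodes within a stage were not named in the rule, and these were tested. In several genes, however, the values of single nodes decided membership. Vitvi05g01944, Vitvi13g00451 and Vitvi13g02014 each left the set when 1 of several libraries was left out. The other 17 stayed in it without any of the 24 libraries, but a node holds 2 or 3 libraries. In Vitvi13g00409 and Vitvi13g00410 the BBCH77 to BBCH63 ratio was below 0.5 at nodes 5 and 10, so node 2 kept them in the set. In Vitvi13g02016 it was 0.525 at node 5, 0.31 at node 10 and 2.93 at node 2, and node 2 kept this gene in the set too. For the genes named here, differences between nodes are therefore given as a description, and the counts of calls below are over all 20 genes. Vitvi19g00581, Vitvi05g01833, Vitvi09g00599 and Vitvi13g02017 had ratios below 0.5 at node 10 and rose at node 2 alone, which kept them in the set. Their comparisons with node 2 before BBCH90 were thus not free of the rule either, and are given as a description too. The test was the quasi-likelihood test of edgeR over 22999 genes, among them all 20 of the set. A gene was called when its p-value adjusted by Benjamini-Hochberg was under 0.05 and the change at least 2-fold.

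At BBCH90, the stage at which these genes were high, no difference between nodes was called in any of the 3 comparisons, and 0.00% of the 22999 genes were called in each. Unadjusted p-values fell under 0.05 for 1 gene of the set when node 5 was compared with node 2, for 0 when node 10 was compared with node 2, and for 1 when node 10 was compared with node 5. Over all genes 7.88%, 9.5% and 9.08% did so. DESeq2, run as an alternative, called 1, 0 and 1 genes of the set, against 0.626%, 0.448% and 0.503% of all genes. Over the 3 comparisons, in the same order, the median log2 fold change of the 20 genes was 0.23, 0.11 and -0.14, beside 0.03, 0.01 and -0.03 over all genes. With 1 library left out these medians ranged from 0.07 to 0.43, from -0.08 to 0.28 and from -0.34 to 0.02. The second changed sign without node 2 replicate 1 or node 10 replicate 1, and the third without node 5 replicate 3.

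The gene behind these p-values and calls was Vitvi05g01944, and its node 5 values had carried it into the set. Its BBCH90 mean was 59.9 times the BBCH77 mean at node 5, but 12 times at node 2 and 6.9 times at node 10, and without node 5 replicate 1 it missed the rule. Its difference between nodes is thus no test and is given by its values alone. It had 179.3, 60.3 and 26.5 CPM at node 5 at BBCH90. Node 2 had 24.2, 18.5 and 11.5 CPM, and node 10 had 9.56 and 15.9 CPM. Every node 5 library lay above every other library, but replicate 1 stood far above the others.

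Aside from this gene, the largest difference at BBCH90 was that of Vitvi07g00380. It had 18.7, 34.8 and 45.6 CPM at node 2, 27.8, 44.1 and 68.2 CPM at node 5, and 54.4 and 49.8 CPM at node 10. Its log2 fold change was 0.64 ± 0.37 (SE) in node 10 vs node 2, with an adjusted p of 0.624 in edgeR. In node 5 vs node 2 it was 0.53 ± 0.34 (SE), with an adjusted p of 0.771. The libraries of nodes 2 and 5 overlapped, and each of these nodes ranged over more CPM than the node means differed by.

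The spread within BBCH90 followed the libraries. Node 2 replicate 1 was the lowest of the 8 libraries for 16 of the 20 genes, against 29.1% of all genes tested. Node 5 replicate 3 was the highest for 11, against 12.2%. The coefficient of variation over the 8 libraries had a median of 19.5% in the set and of 9.79% over the tested genes with at least 10 CPM at BBCH90. It ran from 11.5% to 36.4% in 19 genes and reached 132% in Vitvi05g01944.

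**Figure D2:**
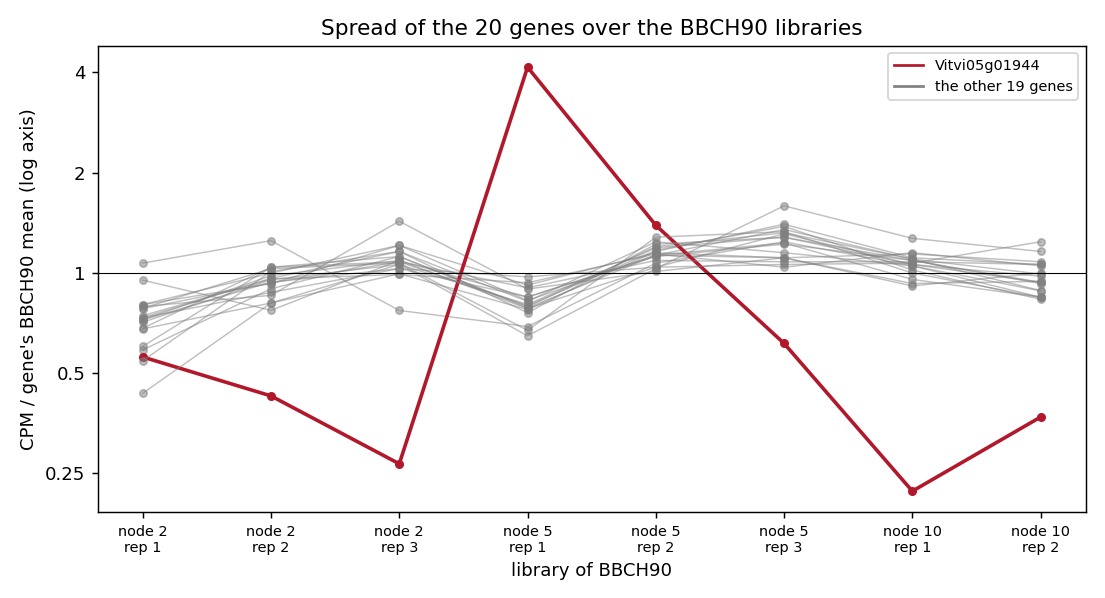
Level of each gene in the 8 BBCH90 libraries divided by its own BBCH90 mean (log axis), with 1 line for each of the 20 genes and the libraries on the horizontal axis. Vitvi05g01944 (red) stands at 4.15 times its mean in node 5 replicate 1, while the other 19 genes (grey) stay close together and are mostly below their mean in replicate 1 of nodes 2 and 5.

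At BBCH63 the genes of the set took a larger share of the counts at node 10 than at node 2. The share was 0.0525% ± 0.0120 (SD, n = 3) at node 2, 0.117% ± 0.0236 (SD, n = 3) at node 5 and 0.192% ± 0.0191 (SD, n = 2) at node 10. Most of it came from the 3 genes with the most reads at BBCH90, which held 0.0434%, 0.102% and 0.168% in the same order. In node 10 vs node 2, 5 genes of the set were called, all higher at node 10, against 4.61% of all genes called in either direction and 1.62% called higher. Unadjusted p-values under 0.05 were found for 11 genes of the set and for 26.0% of all genes. The median log2 fold change was 0.95 in the set and 0.01 over all genes. Without node 10 replicate 2 it was 0.34, with 13 genes higher and 7 lower in place of 17 and 3. Among the 5 genes called, Vitvi19g00581, Vitvi05g01833 and Vitvi09g00599 fell at nodes 5 and 10 from BBCH63 to BBCH77, which node 2 offset. These counts and the median are therefore a description, and nothing is read from their excess over all genes.

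Vitvi19g00581 had 363.9, 258.2 and 280.8 CPM at node 2 at BBCH63. At node 5 it had 650.9, 872.9 and 783.7 CPM, and at node 10 it had 1032 and 1280 CPM. The 3 nodes did not overlap, and the level increased with node number. The log2 fold change was 1.80 ± 0.26 (SE) in node 10 vs node 2, with an adjusted p of 0.000919 in edgeR. In node 5 vs node 2 it was 1.16 ± 0.24 (SE), with an adjusted p of 0.0066.

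Vitvi10g04115 had 4.34, 1.47 and 6.59 CPM at node 2, 9.14, 12.9 and 13.7 CPM at node 5, and 27.7 and 19.1 CPM at node 10. Again no node overlapped another. Its log2 fold change was 2.35 ± 0.38 (SE) in node 10 vs node 2, with an adjusted p of 0.00243 in edgeR. It was 1.33 ± 0.35 (SE) in node 5 vs node 2, with an adjusted p of 0.0231. Vitvi05g01833 showed the same order, with 11.2, 6.24 and 9.63 CPM at node 2, 16, 25.4 and 13.4 CPM at node 5, and 37.2 and 33.7 CPM at node 10. It was called in node 10 vs node 2 only, at 1.83 ± 0.30 (SE), and its difference between the comparisons was not tested. The ratio of BBCH77 to BBCH63 in Vitvi05g01833 was 0.595 at node 5, 0.291 at node 10 and 1.37 at node 2. Node 2 thus kept it in the set, and its difference is a description.

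The other genes called were Vitvi04g01368 and Vitvi09g00599. Vitvi04g01368 had 158.1, 65.7 and 132.6 CPM at node 2 against 491.2 and 487.3 CPM at node 10, a log2 fold change of 1.89 ± 0.39 (SE) with an adjusted p of 0.00713 in edgeR. At node 5 it had 214.9, 292.2 and 154.0 CPM, the last of which fell within the node 2 range. Vitvi09g00599 had 25.2, 19.9 and 24.4 CPM at node 2 against 63.02 and 72.05 CPM at node 10. The log2 fold change was 1.40 ± 0.38 (SE). The ratio of BBCH77 to BBCH63 was 0.637 at node 5, 0.332 at node 10 and 1.11 at node 2. Node 2 thus kept Vitvi09g00599 in the set, and its difference is a description. It lost the call when any of the 5 libraries of this comparison was left out.

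Calls at BBCH63 rested on few libraries. In node 10 vs node 2 the count was 3 without node 10 replicate 1 and 3 without node 10 replicate 2. In node 5 vs node 2 the genes called were Vitvi19g00581 and Vitvi10g04115, 2 of 20 against 4.82% of all genes. Since node 2 kept Vitvi19g00581 in the set, this count is a description too. Unadjusted p-values under 0.05 were found for 5 genes of the set and for 28.0% of all genes. Here 1 call was left without node 2 replicate 1, without node 2 replicate 2, without node 5 replicate 2 or without node 5 replicate 3, and it was Vitvi10g04115 that was lost. No gene of the set was called in node 10 vs node 5, with 0.00% of all genes called, 4 of the set and 10.8% of all genes at an unadjusted p under 0.05, and 0 of the set called by DESeq2.

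Counted without a test, 17 of the 20 genes had their highest BBCH63 mean at node 10. In 11 genes both node 10 libraries lay above the 3 node 2 libraries, a pattern that 40.5% of all genes tested showed as well. Vitvi05g01944 went the other way, with 1.04, 1.04 and 1.82 CPM at node 2 and 0.235 and 0.269 CPM at node 10. Node 5 was uneven, with replicate 2 the highest of its 3 libraries for 18 genes of the set and for 29.0% of all genes.

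At BBCH77 the order was another. In node 5 vs node 2, 6 genes of the set were called, all lower at node 5, against 4.89% of all genes called in either direction and 3.70% called lower. They were Vitvi13g00409, Vitvi13g00410, Vitvi13g00451, Vitvi13g02016, Vitvi17g00885 and Vitvi05g01933, of which 4 carry the number of chromosome 13. The calls thus include Vitvi13g00451, Vitvi13g00409, Vitvi13g00410 and Vitvi13g02016, which the node 2 values kept in the set. The count of 6 is therefore a description, and nothing is read from its excess over the share of all genes. Unadjusted p-values under 0.05 were found for 10 genes of the set, Vitvi13g00451 and Vitvi13g02014 among them, and for 29.7% of all genes. The median log2 fold change was -0.80 in the set and 0.02 over all genes.

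Vitvi13g00409 had 1.80, 2.20 and 0.275 CPM at node 2 at BBCH77. At node 5 it had 0.0698, 0.227 and 0.131 CPM, and at node 10 it had 0.192 and 0.259 CPM. The log2 fold change in node 5 vs node 2 was -3.53 ± 0.69 (SE). Since node 2 kept the gene in the set, this difference is a description. Replicates 1 and 2 of node 2 were high, and replicate 3 lay near the other nodes.

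Vitvi13g00451 had the same split at higher levels, with 51.2, 47.4 and 6.13 CPM at node 2. Node 5 had 4.86, 12.8 and 5.89 CPM, and node 10 had 6.60 and 14.7 CPM. Replicate 3 of node 2 lay within the range of node 5. Without node 2 replicate 1 or replicate 2 the gene missed the rule, so this difference is a description. Vitvi13g02016 had 0.592, 1.14 and 0.1 CPM at node 2, and its node 5 libraries had 0.186, 0.208 and 0.0563 CPM. The log2 fold change was -2.28 ± 0.69 (SE), which is given as a description too.

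Vitvi13g00410, again by description, had 3.26, 3.67 and 0.725 CPM at node 2 and 0.674, 0.813 and 0.206 CPM at node 5. Its log2 fold change was -2.46 ± 0.58 (SE). Vitvi17g00885 had 6.33, 3.85 and 2.00 CPM at node 2 and 2.65, 2.42 and 1.33 CPM at node 5. Its log2 fold change was -1.23 ± 0.37 (SE), with an adjusted p of 0.0393 in edgeR. In both genes the third library of node 2 overlapped with node 5. In Vitvi05g01933 it did not, with 39.3, 25.8 and 27.8 CPM at node 2 and 10.9, 20.8 and 17.1 CPM at node 5, a log2 fold change of -1.19 ± 0.33 (SE) and an adjusted p of 0.0276.

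These calls depended on single libraries. The count of 6 became 1 without node 2 replicate 1, 2 without node 2 replicate 2 and 10 without node 2 replicate 3. It became 1 without node 5 replicate 1 and 1 without node 5 replicate 3. A fit on these 2 groups alone called 0, with 5 genes of the set at an unadjusted p under 0.05. Across the set, node 2 replicate 1 lay above all node 5 libraries in 12 genes and replicate 2 in 12, against 17.3% and 17.7% of all genes. Replicate 3 did so in 5, against 19.4%.

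In node 10 vs node 2 at BBCH77, 0 genes of the set were called by edgeR and 5 by DESeq2, against 1.6% and 2.92% of all genes. Unadjusted p-values under 0.05 in edgeR were found for 6 genes of the set and 22.3% of all genes. Without node 2 replicate 3 the edgeR count was 8, against 10.5% of all genes. No gene of the set was called in node 10 vs node 5 by either tool, with 0.00% of all genes called in edgeR and 1 of the set and 3.41% of all genes at an unadjusted p under 0.05.

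**Figure D3:**
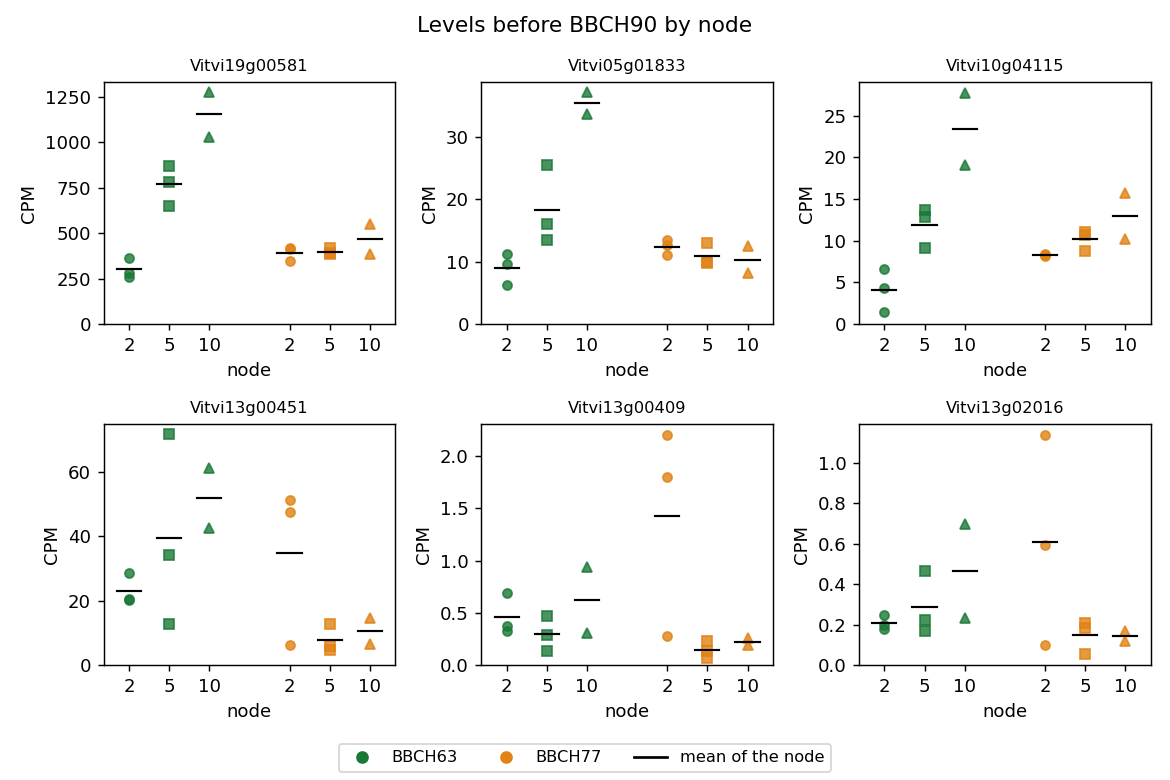
CPM before BBCH90 by node (horizontal axis) for 6 genes called between nodes, with 1 point for each library, BBCH63 in green and BBCH77 in orange, and a bar at the mean of the node. In the upper row the BBCH63 levels increase from node 2 to node 10, and in the lower row replicates 1 and 2 of node 2 stand above the rest at BBCH77.

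The mean change from BBCH63 to BBCH77 had another direction at node 2 than at nodes 5 and 10 in most genes of the set. The rule set limits to this ratio over all nodes together, and it was through these limits that single libraries decided on Vitvi13g00451 and Vitvi13g02014. Vitvi05g01944 depended on them too, and through the fold limit on BBCH90 node 5 replicate 1. At node 2 the BBCH77 mean was above the BBCH63 mean in 15 of the 20 genes, at node 5 in 3 and at node 10 in 2. Over all genes tested the shares were 51.0%, 53.7% and 53.9%. The median ratio in the set was 1.41 at node 2, 0.616 at node 5 and 0.422 at node 10.

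The difference between nodes in this change was fitted as an interaction, which was added after these values were seen. The rule bounded the same change over all nodes together. Genes with a fall below 0.5 at nodes 5 and 10 could enter only when node 2 offset it. The counts and p-values of both interactions are thus a description, and nothing is read from their excess over the shares of all genes. For node 10 minus node 2, 0 genes of the set were called in edgeR and 5 by DESeq2, against 0.0174% and 0.893% of all genes. Unadjusted p-values under 0.05 in edgeR were found for 16 of the 20 genes and 12.3% of all genes. The median difference in log2 fold change was -1.85 in the set and 0.01 over all genes. Without BBCH77 node 2 replicate 3, 14 genes of the set were called, all lower, Vitvi13g00451 and Vitvi13g02014 among them, against 3.39% of all genes. Vitvi05g01833 had the smallest p in the set, with a difference of -2.28 ± 0.44 (SE) and an adjusted p of 0.0817 in edgeR, and Vitvi19g00581 followed with -1.76 ± 0.37 (SE) and an adjusted p of 0.0952. Vitvi05g01944, Vitvi09g01426 and Vitvi18g00876 had positive differences, of 2.64, 0.40 and 1.46.

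For node 5 minus node 2, 0 genes of the set were called in edgeR and 4 by DESeq2, against 0.013% and 0.51% of all genes. The set had 10 genes at an unadjusted p under 0.05 in edgeR, against 10.3% of all genes, and a median difference of -1.33. Without BBCH77 node 2 replicate 3 the edgeR count was 7, Vitvi13g00451 among them, against 2.17% of all genes.

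**Figure D4:**
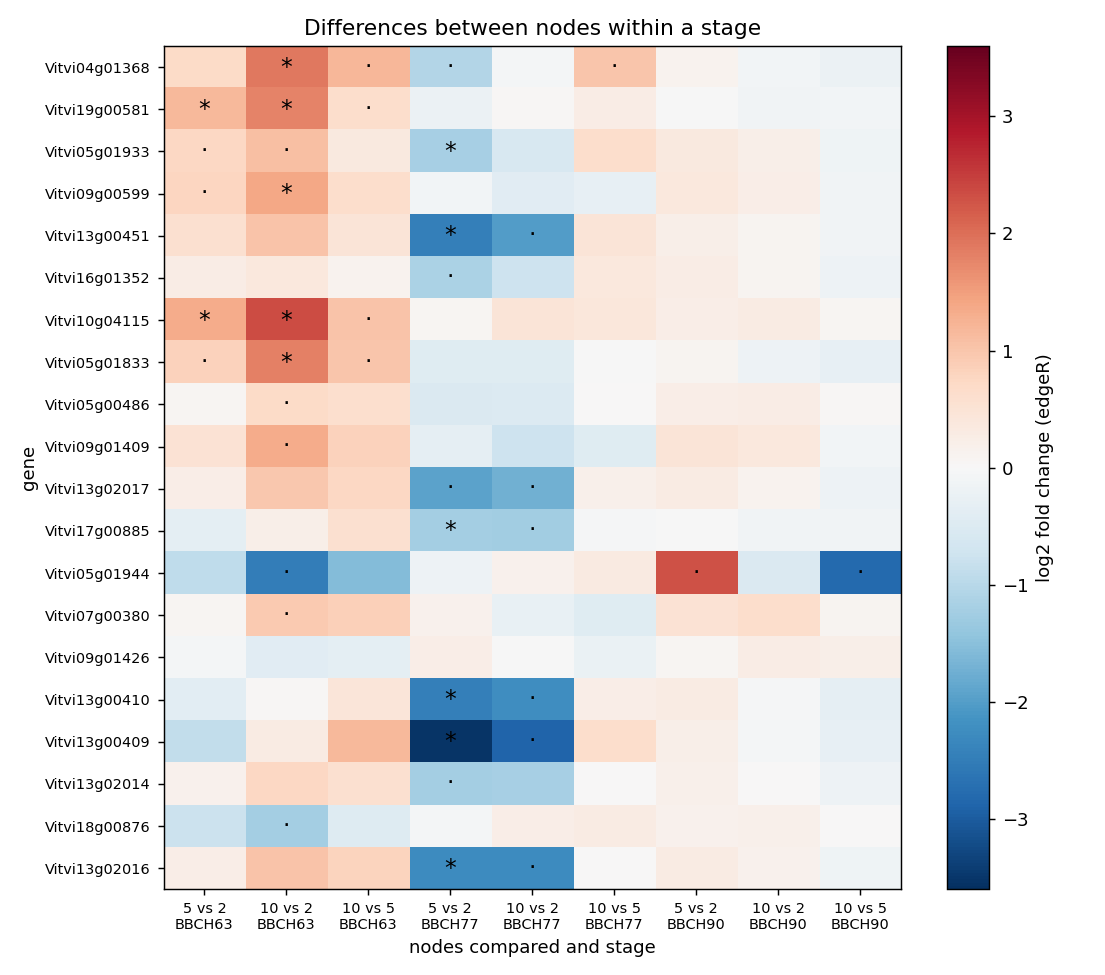
Log2 fold change from edgeR of the 20 genes (rows) in the 9 comparisons of nodes within a stage (columns), red for higher and blue for lower in the node named first. A star marks the 13 called differences and a dot an unadjusted p under 0.05 without a call. The calls at BBCH63 are all higher in node 5 or node 10 than in node 2, those at BBCH77 are all lower in node 5 than in node 2, while the BBCH90 columns are pale except for Vitvi05g01944.

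The 3 libraries left out were not used to choose the genes. In the library labelled BBCH77 node 10 replicate 3, all 20 genes lay within the range of the 8 BBCH90 libraries, as 85.6% of all genes tested did. It had 13764 CPM of Vitvi04g01368, 11221 CPM of Vitvi19g00581 and 7857 CPM of Vitvi05g01933. All 20 genes lay above all 16 earlier libraries compared, which 19.5% of all genes did. The library labelled BBCH63 node 10 replicate 3 had 0 of the 20 genes within the BBCH90 range, and 5 above all 16 earlier libraries, against 7.19% of all genes. It had 76.0 CPM of Vitvi05g01933, while the highest earlier library compared had 39.3 CPM. The library labelled BBCH90 node 10 replicate 3, whose counts are those of BBCH63 node 2 replicate 2, had 0 of the 20 genes within the BBCH90 range, and 65.7 CPM of Vitvi04g01368.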

How the data were processed

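Bud RNA was sequenced from stranded mRNA libraries, and 27 libraries were used here. The authors deposited raw counts, whole numbers of reads per gene without normalization. The labels name FastQC, HISAT2 and HTSeq, and the methods name the PN40024.v4 genome. Versions are not given in the sources used here. The table has 35134 genes, 27 columns of counts and 0 other columns. No identifier matched the reference gene table (0 of 35134), so no names, functional lists, promoter motifs or sequences are given.

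CPM was computed from the column totals. The rule was applied to 24 libraries, 8 for each stage. Node comparisons were tested with edgeR 4.0.16 in R 4.3.3 (quasi-likelihood, TMM, filterByExpr with a minimum count of 10, 9 group means), with adjusted p under 0.05 and a 2-fold change as the limits of a call. Standard errors were derived from each fold change and its F value, as the size of the former over the root of the latter. DESeq2 1.42.0, its size factors, no filter, all 27 libraries, the replicate block, the 2 groups alone, other limits and leaving out each library were the alternatives. Tables and figures used Python with pandas and matplotlib. The test was tried on simulated data first. Groups followed the stage, node and replicate of the labels. The replicates are the study's pools of buds, and p-values measure the spread between these pools. The depth of 34531620 to 53307172 counts leaves counting error small except in the genes with the lowest counts.

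The genes and lists were chosen with earlier results of these data known. The text names the genes with the highest BBCH90 means, those called between nodes, the extremes of the BBCH90 comparisons and those next to each limit, and with these all 20 are named. The interactions, the identifier neighbours and the counts of high and low libraries were added after values were seen.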

Additional observations from a re-analysis of the deposited data

Results flagged for a closer look

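Each of the 20 genes, and their sum, was examined over the 8 libraries of each stage, which gave 63 sets. Of these, 3 had a highest library that stood apart from the rest by Dixon's criterion, and chance flags about 1 in 20 such sets. Vitvi05g01944 had 179.3 CPM in BBCH90 node 5 replicate 1, with the next library at 60.3 CPM. Vitvi19g00581 had 548.5 CPM in BBCH77 node 10 replicate 2, with the next at 420.7 CPM. Vitvi10g04115 had 15.8 CPM in BBCH77 node 10 replicate 1, with the next at 11.1 CPM. Each set holds all 3 nodes of a stage.

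A signal was also present in a library outside the comparisons. The 20 genes summed to 37018 CPM in the library labelled BBCH77 node 10 replicate 3. In the 8 BBCH77 libraries compared the sum ranged from 613.3 to 1014 CPM, and in the 8 BBCH90 libraries from 30016 to 47597 CPM.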

How the results depend on the processing

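The number of genes in the set was 20, and 17 to 24 with 1 library left out. It was 0 with all 27 libraries, 48 at a fold limit of 8, 12 at a fold limit of 32 and 31 with the BBCH77 to BBCH63 ratio allowed between 1/3 and 3. At BBCH90 the calls for node 5 against nodes 2 and 10 ranged from 0 to 1 with 1 library left out, and DESeq2 called 1 in each; this gene was Vitvi05g01944, which its node 5 values had carried into the set. In node 5 vs node 2 at BBCH77 the 6 calls became 1 to 10 with 1 library left out, 1 at an adjusted p under 0.01, 0 with all 27 libraries and 0 with the 2 groups alone. In node 10 vs node 2 at BBCH77 the count of 0 became 0 to 8 with 1 library left out, 5 in DESeq2, 1 with DESeq2 size factors in edgeR and 2 with the replicate block. In node 5 vs node 2 at BBCH63 the 2 calls became 1 to 2 with 1 library left out, 1 at an adjusted p under 0.01, 0 with all 27 libraries and 1 with the 2 groups alone. In node 10 vs node 2 at BBCH63 the 5 calls became 3 to 6 with 1 library left out, 8 in DESeq2 and 0 with all 27 libraries. The interaction counts of 0 became 0 to 7 (node 5) and 0 to 14 (node 10) with 1 library left out, and 4 and 5 in DESeq2. With all 27 libraries the interaction of node 10 reversed, to 1.94 for Vitvi05g01833 and 1.70 for Vitvi19g00581; these fits include the library labelled BBCH77 node 10 replicate 3. The cause of the other changes was not tested.

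The main fit did not pair the samples by replicate number, and whether these numbers marked pairs was not tested. Over 87 pairs of same-numbered libraries the correlation of their deviations ranged from -0.194 to 0.454, and 30 were over 0.1. The replicate block moved no other count of calls in the set by more than 1.5 times. Over all genes, calls between nodes 10 and 2 went from 1060 to 1639 at BBCH63 and, at BBCH77, from 367 to 944. Calls between nodes 5 and 2 at BBCH90 went from 0 to 10. The lowest genes, at 3 counts and above, limit the precision of their fold changes before BBCH90.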
